A study of Mus musculus with 48 samples.

Results

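Folliculin (Flcn), its partners Fnip1 and Fnip2, the MiT/TFE transcription factors Tfeb, Tfe3 and Mitf, the Rag GTPases Rragc and Rragd, and the MiT/TFE targets Gpnmb and Sqstm1 were followed in C2C12 muscle cells after stretching. These 10 genes, of 47480 gene symbols with counts, were members of a known pathway. They were selected on their measured differences between stretched and non-stretched cells at 1, 3 and 6 h in both stages. Those differences are therefore given here as a description. Counts of these genes under a p-value threshold come from the same values and are not read as tests. All 10 genes passed the filter on low counts in each of the 6 stretch comparisons.

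C2C12 is a mouse muscle cell line: its myoblasts divide, and after a change of medium they stop dividing, fuse and form myotubes. Cells were grown on flexible, collagen-coated plates and stretched cyclically in all directions of the plane with a Flexcell device, and non-stretched cells were kept on the same kind of plate. The 48 libraries form 12 groups of 4: myoblasts with and without stretching at each time (1, 3 or 6 h), and differentiated cells with and without stretching at the same times. No drug or genetic change separated the groups, and all cells came from 1 line. The labels give the molecule as nuclear RNA, whereas the methods describe stranded libraries made from mRNA.

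The libraries held between 48447318 and 77080730 counts, with a median of 61391637. Within each stage, replicates 7 and 8 came from the same experiment and replicates 9 and 10 from another, and the stages did not share experiments. The p-values therefore measure the spread between such libraries. The stretched differentiated group at 1 h held replicates 4, 7, 8 and 9. Its replicate 4 was the only library of its experiment and stood apart from the others for Flcn and Rragc, and the values below are therefore given with and without it. The muscle markers matched the stages: Myog, a transcription factor of differentiating muscle, had between 0.389 and 3.22 CPM (counts scaled to a common library size) in myoblasts and between 722.9 and 961.5 CPM in differentiated cells, while Myod1, a factor that commits cells to muscle, was at 90.1 CPM or more in every library.

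Folliculin and a FNIP protein form a complex that acts at the lysosome as a GTPase-activating protein for the RagC and RagD GTPases. When amino acids are plentiful, the Rag GTPases hold mTORC1 and the MiT/TFE factors at the lysosome, where mTORC1 phosphorylates the factors and keeps them in the cytoplasm. When this hold is lost, TFEB and TFE3 enter the nucleus and switch on genes of lysosomes and autophagy, among which Flcn, Fnip1, Fnip2, Rragc, Rragd, Gpnmb and Sqstm1 have been described as targets. Transcript levels, which were measured here, do not show where the factors are in the cell.

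MiT/TFE factors bind E-boxes with the core CACGTG. The promoters of Fnip1 and Rragc are shown because they are the members of the set that hold this core, and that of Flcn because its stretch values were the most extreme of the GTPase-activating complex. The sequences are from RefSeq on GRCm38.p6, run 5′ to 3′ on the strand of the gene and end before the start of transcription. Capitals mark the E-box core.
Fnip1, chr11:54438059-54438154, plus strand: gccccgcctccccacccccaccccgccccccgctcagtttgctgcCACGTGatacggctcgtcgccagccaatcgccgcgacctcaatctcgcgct
Rragc, chr4:123917276-123917371, plus strand: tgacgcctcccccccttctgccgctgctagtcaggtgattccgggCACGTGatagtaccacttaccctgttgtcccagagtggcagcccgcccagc
Flcn, chr11:59810040-59810189, minus strand: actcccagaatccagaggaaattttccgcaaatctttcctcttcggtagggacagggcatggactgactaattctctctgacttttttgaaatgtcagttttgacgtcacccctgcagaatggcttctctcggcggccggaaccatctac

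In windows of 300 bases around the start of transcription, searched on both strands, CACGTG began 75 bases before the start of Fnip1 and 112 bases before that of Rragc. It was therefore found in 2 of the 10 genes (20%), against 8.09% of the 27025 genes with a promoter in the table. Those 27025 genes were not limited to genes that passed the filter on low counts, and the share among such genes was not computed. The longer CLEAR palindrome, which contains the core, and the M-box TCATGTG were found in none of the 10 genes, against 0.37% and 4.31% of all genes. Among the wider pathway, CACGTG was in the window of 12 of 27 matched genes of lysosomal enzymes and membrane proteins (44.4%) and in 4 of 11 matched genes of the V-ATPase (36.4%), the proton pump that acidifies lysosomes. It was in 4 of 26 matched autophagy genes (15.4%), in 5 of 26 matched genes of the Rag, Ragulator, GATOR, TSC and mTORC1 list (19.2%), in 0 of 7 AMPK subunit genes and in 0 of 2 matched PGC-1 and ERRalpha genes. The 4 V-ATPase genes were Atp6v0b, Atp6v0d1, Atp6v0e and Atp6v1a. A match is only a match of letters, and binding was not measured.

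**Figure D1:**
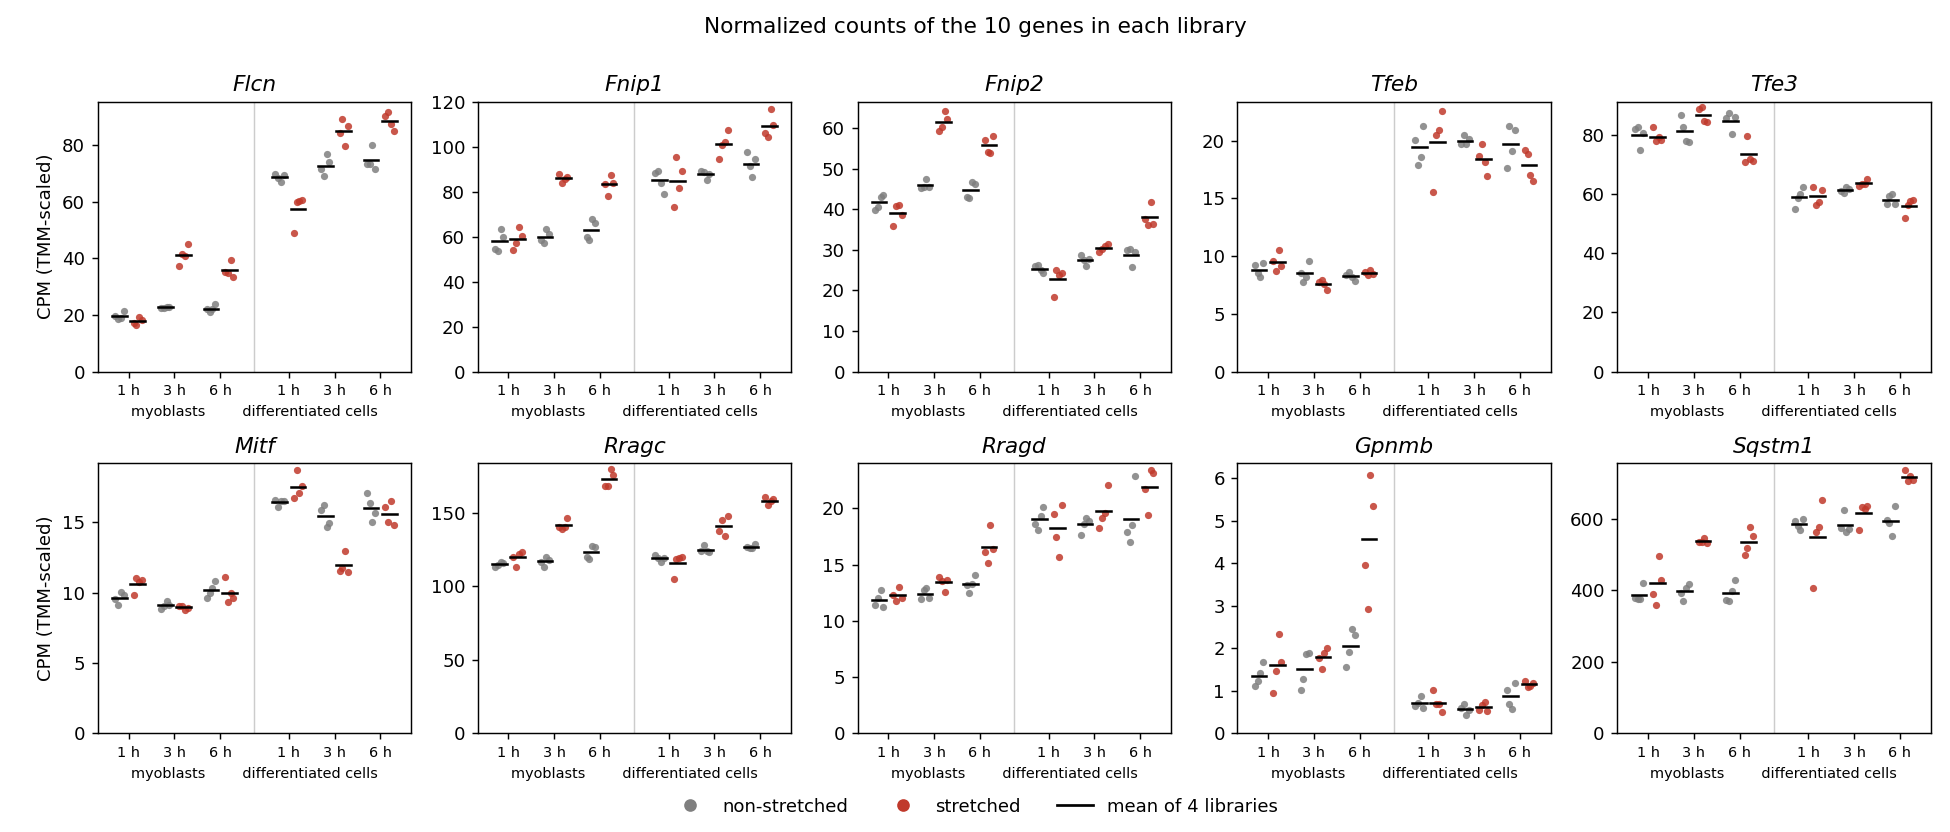
CPM on TMM-scaled library sizes (vertical axis, a separate scale for each gene) of the 10 genes at 1, 3 and 6 h in myoblasts and differentiated cells, with 1 point per library (grey, non-stretched; red, stretched) and a line at the mean of 4. Stretched myoblasts lie above the non-stretched ones for Flcn, Fnip1 and Fnip2 at 3 and 6 h, and for Gpnmb at 6 h.

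At 1 h of stretching, 0 of the 10 genes reached an adjusted p-value under 0.05 in either stage, where in myoblasts 1.67% of the genes tested were higher and 4.24% lower, and in differentiated cells 0.193% were higher and 0.47% lower. At an unadjusted p-value under 0.05 edgeR counted 1 higher and 1 lower in myoblasts and 0 and 1 in differentiated cells, and DESeq2 gave 0 and 1 genes with an adjusted p-value under 0.05 in the respective stages. At 3 h, 5 genes were higher at this threshold in myoblasts (16% of all genes tested were higher) and 4 in differentiated cells (10.8%), where 1 gene was lower (11.4%). In myoblasts at 3 h 0 were lower (15.8%). At 6 h, 7 genes were higher (14.1%) and 1 lower (13%) in myoblasts, and 5 were higher (11.5%) and 0 lower (10.8%) in differentiated cells. With the study's added limit of 0.58 on the log2 fold change in either direction, 0 of the 10 genes passed at 1 h in myoblasts (1.25% of all genes did), 1 at 3 h (Flcn; 1.71%) and 2 at 6 h (Flcn and Gpnmb; 2.17%). In differentiated cells 0 passed both limits at 1 h, 3 h and 6 h (0.27%, 1.63% and 2.04% of all genes). The genes were chosen with these comparisons in view, so nothing is read from the counts or from the medians that follow. The median log2 fold change of the 10 genes was 0.06, 0.25 and 0.38 at 1 h, 3 h and 6 h in myoblasts and -0.02, 0.11 and 0.24 in differentiated cells. The median of all genes tested lay between -0.01 and 0.00.

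Flcn encodes the catalytic part of the GTPase-activating complex. At 3 h in myoblasts its level was 22.4, 22.5, 22.8 and 22.9 CPM in non-stretched cells and 37.4, 41.5, 41.0 and 45.1 CPM in stretched cells. All 4 stretched libraries lay above all 4 non-stretched libraries, and the fitted change was 1.81-fold, a log2 fold change of 0.85 ± 0.049 (SE). At 6 h the values were 22.0, 20.9, 22.3 and 23.9 CPM in non-stretched cells and 35.3, 34.9, 39.3 and 33.5 CPM in stretched cells, again without overlap, with a log2 fold change of 0.70 ± 0.055. The difference was present in both experiments at 3 h, with log2 ratios of 0.81 in replicates 7 and 8 and 0.91 in replicates 9 and 10. At 1 h Flcn had 19.7, 18.4, 19.1 and 21.3 CPM in non-stretched cells and 17.1, 16.6, 19.4 and 18.1 CPM in stretched cells, and the groups overlapped (log2 fold change -0.14 ± 0.058). In bulk RNA a change in the cells that carry a transcript and a change in the amount per cell cannot be told apart. Of the 8 muscle markers tested in myoblasts, 0 were upregulated and 1 downregulated at 3 h (16% and 15.8% of all genes tested). At 6 h 1 was upregulated and 2 were downregulated (14.1% and 13%). These calls are at an adjusted p-value under 0.05, and the part of the markers in the values of Flcn was not tested.

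In differentiated cells Flcn was at a higher level to start with, and at 3 h and 6 h its stretch values were smaller than in myoblasts. At 1 h its level was 69.8, 68.6, 67.1 and 69.4 CPM in non-stretched cells and 49.0, 59.8, 60.2 and 60.6 CPM in stretched cells, the lowest of these being replicate 4. Every stretched library lay below every non-stretched one, with a log2 fold change of -0.26 ± 0.065, and the log2 ratio of the means was -0.19 without replicate 4. At 3 h the direction was the opposite: Flcn had 71.4, 68.9, 76.9 and 73.9 CPM in non-stretched cells and 84.1, 89.4, 79.7 and 86.9 CPM in stretched cells (log2 fold change 0.22 ± 0.043). At 6 h the levels were 73.2, 73.5, 80.2 and 71.7 CPM in non-stretched cells and 90.2, 91.7, 87.5 and 84.9 CPM in stretched cells (log2 fold change 0.24 ± 0.041), and as at 3 h the groups did not overlap. Whether the stretch effect differed between the stages was not tested.

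Fnip1 and Fnip2 encode the partners that carry folliculin in the complex. In myoblasts at 3 h Fnip1 had 58.7, 57.1, 63.3 and 61.2 CPM in non-stretched cells and 87.7, 84.1, 85.5 and 86.7 CPM in stretched cells, a log2 fold change of 0.51 ± 0.034. Fnip2 had 45.3, 45.5, 47.5 and 45.6 CPM in non-stretched cells and 59.4, 60.3, 64.2 and 62.3 CPM in stretched cells at the same time, a log2 fold change of 0.41 ± 0.032. For both genes the stretched libraries lay above the non-stretched ones at 3 h and again at 6 h, when the log2 fold changes were 0.42 ± 0.051 for Fnip1 and 0.34 ± 0.039 for Fnip2. Both stayed short of the limit of 0.58. At 1 h the groups overlapped, with 0.03 ± 0.061 for Fnip1 and -0.10 ± 0.049 for Fnip2.

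In differentiated cells the groups of both partners were also apart at 3 h and 6 h. Fnip1 had 97.5, 91.4, 86.5 and 94.4 CPM in non-stretched cells and 106.2, 104.2, 116.9 and 109.8 CPM in stretched cells at 6 h, a log2 fold change of 0.24 ± 0.046. Fnip2 had 29.9, 30.3, 25.8 and 29.4 CPM in non-stretched cells and 37.6, 36.2, 41.9 and 36.4 CPM in stretched cells, a log2 fold change of 0.40 ± 0.060. At 3 h the corresponding values were smaller, 0.21 ± 0.036 for Fnip1 and 0.15 ± 0.037 for Fnip2. At 1 h Fnip2 was at 18.4, 25.1, 23.7 and 24.2 CPM in stretched cells, of which the first is replicate 4. The log2 fold change of -0.15 ± 0.088 became a log2 ratio of -0.06 without that library, and that of Fnip1, -0.01 ± 0.077, became 0.06.

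RagC and RagD, encoded by Rragc and Rragd, are the Rag GTPases on which folliculin acts. Rragc had 120.1, 118.5, 127.4 and 126.7 CPM in non-stretched cells and 168.3, 168.6, 180.1 and 176.0 CPM in stretched cells in myoblasts at 6 h, a log2 fold change of 0.51 ± 0.035. At 3 h its groups were also apart (117.0 ± 2.80 CPM (SD, n = 4) in non-stretched and 141.6 ± 3.18 CPM (SD, n = 4) in stretched cells), with a log2 fold change of 0.26 ± 0.028. In differentiated cells Rragc reached 127.0 ± 1.39 CPM (SD, n = 4) in non-stretched and 158.5 ± 2.23 CPM (SD, n = 4) in stretched cells at 6 h, and the log2 fold change was 0.32 ± 0.029. At 1 h it lay within 0.06 of 0 on the log2 scale in both stages, and replicate 4 of the stretched differentiated cells had the lowest value of that group, 105.4 CPM. The log2 fold change of -0.04 ± 0.048 in differentiated cells at 1 h became a log2 ratio of 0.003 without that library. Rragc thus differed more at 6 h than at 3 h in both stages, whereas Flcn in myoblasts had its larger value at 3 h. The change between times was not tested.

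Rragd was expressed at a lower level than Rragc per kb of exon. In myoblasts at 6 h it had 13.2, 12.5, 13.3 and 14.1 CPM in non-stretched cells and 16.1, 15.1, 18.5 and 16.4 CPM in stretched cells, without overlap, and a log2 fold change of 0.34 ± 0.064. In differentiated cells at 6 h its groups overlapped (17.9, 16.98, 18.5 and 22.9 CPM in non-stretched cells and 21.7, 19.4, 23.4 and 23.1 CPM in stretched cells), with a log2 fold change of 0.20 ± 0.093. At 1 h and 3 h its log2 fold changes lay between -0.06 and 0.10 over both stages, and the log2 ratio in differentiated cells at 1 h was -0.10 without replicate 4.

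**Figure D2:**
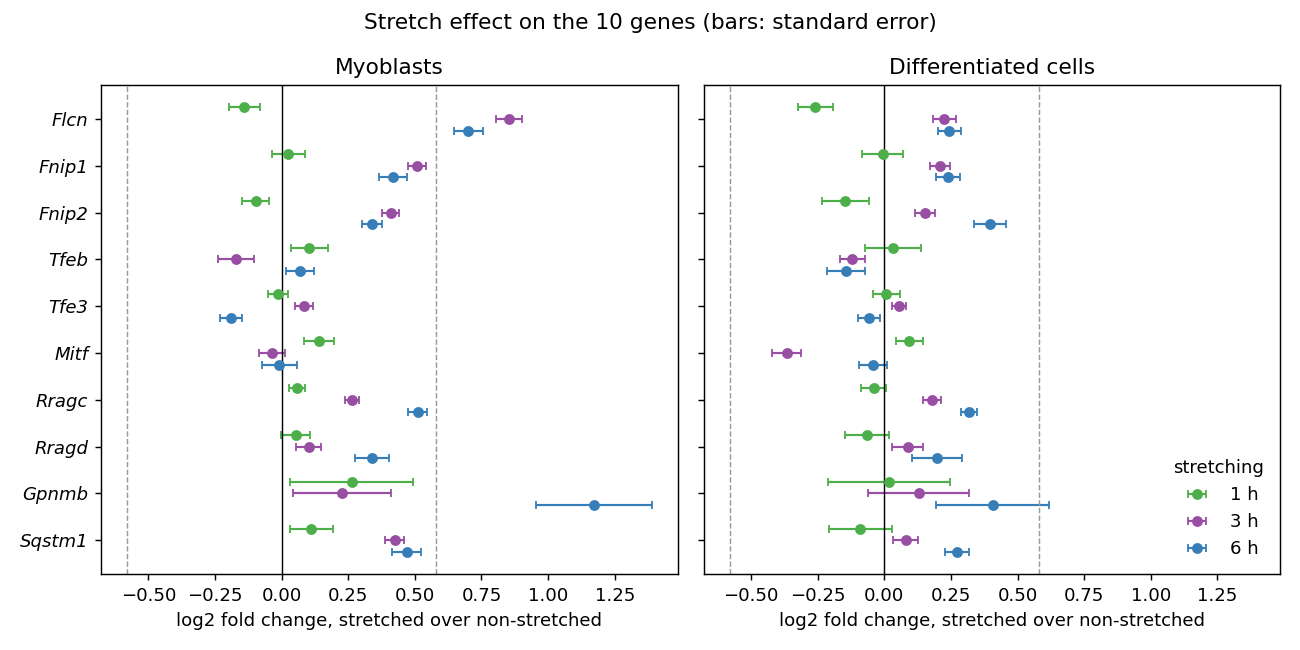
Log2 fold change of stretched over non-stretched cells (horizontal axis; points with standard errors as bars) for the 10 genes in myoblasts and differentiated cells, coloured by time, with dashed lines at the limit of 0.58 in either direction. Flcn at 3 and 6 h and Gpnmb at 6 h in myoblasts lie beyond the limit, and Mitf at 3 h in differentiated cells lies lowest, at -0.37.

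Among the transcription factors the log2 fold changes lay between -0.37 and 0.14. Tfe3, the factor gene with the highest level per kb of exon in myoblasts, had 85.7, 87.6, 80.2 and 86.0 CPM in non-stretched cells and 71.0, 79.5, 72.0 and 71.3 CPM in stretched cells at 6 h. Here the stretched myoblasts were lower without overlap, with a log2 fold change of -0.19 ± 0.041, and replicate 8 was the highest of the stretched libraries. At 3 h its groups overlapped and the value was 0.08 ± 0.034, and in differentiated cells all 3 values lay between -0.06 and 0.05. Of these, the value at 1 h turned from 0.01 to a log2 ratio of -0.02 without replicate 4.

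Tfeb encodes the factor best known for switching on lysosomal genes. Its groups overlapped in all 6 comparisons, with log2 fold changes from -0.17 in myoblasts at 3 h to 0.10 in myoblasts at 1 h. In differentiated cells at 1 h its log2 fold change of 0.03 ± 0.11 became a log2 ratio of 0.13 without replicate 4. In myoblasts at 3 h it had 8.57, 7.74, 8.16 and 9.56 CPM in non-stretched cells and 7.76, 7.94, 7.58 and 7.11 CPM in stretched cells. Mitf encodes the factor that governs melanocyte genes and has several promoters. In differentiated cells at 3 h it had 15.9, 16.3, 14.7 and 14.9 CPM in non-stretched cells and 11.6, 11.8, 13.0 and 11.5 CPM in stretched cells, so that every stretched library was lower (log2 fold change -0.37 ± 0.055). At 6 h its level in the stretched differentiated cells was close to that of the non-stretched cells again, with a log2 fold change of -0.04 ± 0.053, and in myoblasts the 3 values lay between -0.04 and 0.14. At 1 h in differentiated cells it had 0.09 ± 0.050, and a log2 ratio of 0.12 without replicate 4. There every stretched library lay above the non-stretched ones for Mitf (16.76 to 18.7 against 16.12 to 16.6 CPM). Tfec, which encodes the fourth factor of the family, had no count in 47 of the 48 libraries and 1 count in the other.

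Gpnmb encodes a membrane glycoprotein of lysosomes and melanosomes and is often used as a readout of TFE3 activity. It was close to the lower end of what was tested, with at least 50 counts in each non-stretched myoblast library and 28 in each non-stretched differentiated one. In myoblasts at 6 h it had 1.57, 1.90, 2.46 and 2.31 CPM in non-stretched cells and 3.96, 2.92, 6.07 and 5.36 CPM in stretched cells, a log2 fold change of 1.17 ± 0.22 and the largest fold among the 10 genes in any of the 6 comparisons (2.25-fold). The stretched replicates 9 and 10 were the highest, and the log2 ratios were 0.99 in replicates 7 and 8 and 1.26 in replicates 9 and 10. In myoblasts at 1 h and 3 h the groups overlapped, with 0.26 ± 0.23 and 0.23 ± 0.18. In differentiated cells at 6 h they overlapped as well (0.41 ± 0.21). At 1 h in differentiated cells the log2 fold change of 0.02 ± 0.23 became a log2 ratio of -0.18 without replicate 4.

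Gpnmb is also expressed by macrophages and melanocytes. Of 12 macrophage markers, Adgre1, C1qa, C1qb, C1qc and Tyrobp had no count in any of the 48 libraries. Cd68 and Csf1r had counts in every library, with up to 90 counts and between 0.916 and 1.36 CPM in myoblasts for Cd68, and Itgam reached 101 counts (1.57 CPM) in differentiated cells. The summed level of the 12 was between 1.15 and 1.51 CPM in non-stretched and between 1.27 and 1.47 CPM in stretched myoblasts at 6 h. Of 7 melanocyte markers, Dct and Oca2 had no count in any library, and their summed level at 6 h was between 0.0669 and 0.202 CPM in non-stretched and between 0.172 and 0.279 CPM in stretched myoblasts. The part of the melanocyte-marker counts, chiefly of Pmel, and of the macrophage-marker counts in the values of Mitf and Gpnmb was not tested.

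Sqstm1 encodes p62, an autophagy receptor that is itself degraded in lysosomes. In myoblasts at 3 h it had 392.1, 368.6, 406.5 and 418.5 CPM in non-stretched cells and 534.9, 535.5, 544.3 and 530.3 CPM in stretched cells, a log2 fold change of 0.42 ± 0.035. At 6 h the log2 fold change was 0.47 ± 0.054, and at both times the groups were apart. In differentiated cells Sqstm1 had 596.8, 588.7, 549.9 and 633.8 CPM in non-stretched cells and 735.3, 704.2, 718.4 and 708.3 CPM in stretched cells at 6 h, where the groups were apart (0.27 ± 0.045). At 3 h they overlapped (0.08 ± 0.046). At 1 h replicate 4 of the stretched differentiated cells was the lowest, at 405.9 CPM, and the log2 fold change of -0.09 ± 0.12 became a log2 ratio of 0.03 without it.

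Groups without overlap give a count that uses no p-value, though it rests on the scaled CPM and on the filter on low counts. The genes were chosen on these same differences, so nothing is read from this count. In myoblasts, stretched libraries lay above non-stretched ones for 0 of the 10 genes at 1 h (5.32% of all genes tested), 5 at 3 h (17.1%) and 7 at 6 h (12.4%), and below them for 0 (8.03%), 0 (13.7%) and 1 (16.3%). In differentiated cells they lay above for 1 (2.46%), 5 (12.5%) and 5 (14.3%), and below for 1 (3.91%), 1 (13.5%) and 0 (12.2%).

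The V-ATPase pumps protons into the lysosome, and its genes are a common target group of TFEB and TFE3. This list and the pathway lists below were chosen with earlier results of these data known. Their counts and adjusted p-values are therefore given as a description and not read as independent tests. In myoblasts at 6 h, 13 of its 15 genes were upregulated at an adjusted p-value under 0.05 and 0 were downregulated (14.1% and 13% of all genes tested), though none reached a log2 fold change of 0.58. Their median log2 fold change was 0.34, with values from 0.02 to 0.45. The larger differences were those of Atp6v1g1 (0.45 ± 0.058, adjusted p = 3.61e-04), Atp6v1d (0.39 ± 0.041, adjusted p = 1.23e-04) and Atp6v1h (0.39 ± 0.033, adjusted p = 4.04e-05), which encode parts of the cytoplasmic V1 sector. The genes that did not pass were Atp6v1e1 (log2 fold change 0.02, adjusted p = 0.66) and Atp6v1f (0.10, adjusted p = 0.138). At 3 h in myoblasts 7 of the 15 genes were upregulated and 0 downregulated (16% and 15.8% of all genes tested), with a median of 0.07, and this count was 3 when all 24 libraries of the stage were fitted together. At 1 h edgeR and DESeq2 gave 0 genes in both stages, and at an unadjusted p-value under 0.05 edgeR counted 2 in myoblasts and 0 in differentiated cells.

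At 6 h in differentiated cells, 9 of the 15 V-ATPase genes were upregulated (11.5% of all genes tested), with a median of 0.14, and 1, Atp6v1e1, was downregulated (10.8%; log2 fold change -0.10, adjusted p = 0.042). The call of Atp6v1e1 was lost under 10 of 15 alternatives, among them leaving out any library but non-stretched replicate 10 (adjusted p = 0.0539 to 0.127). Whether the stages differed was not tested. The genes with the larger values were Atp6v1c1 (0.22 ± 0.030, adjusted p = 0.00107) and Atp6v1b2 (0.20 ± 0.031, adjusted p = 0.0022). Without non-stretched replicate 8, or without stretched replicate 7, the count of upregulated genes was 5. At 3 h 2 genes were upregulated, Atp6v0c (0.10 ± 0.028, adjusted p = 0.0282) and Atp6ap2 (0.14 ± 0.029, adjusted p = 0.0067), and Atp6v1a was downregulated (-0.10 ± 0.032, adjusted p = 0.0446), where 10.8% and 11.4% of all genes tested were. The call of Atp6v1a was lost when non-stretched replicate 7, 8 or 10 was left out, or stretched replicate 7, 9 or 10 (adjusted p = 0.0587 to 0.115). The count of 2 became 1 when any of 5 libraries was left out (non-stretched replicates 8, 9 and 10 and stretched replicates 7 and 8). Of the V-ATPase genes, Atp6v1g1, Atp6v1d and Atp6v1h are named by a rule that takes the largest changes in these same comparisons. Their adjusted p-values are thus those of genes picked for large values. The other V-ATPase genes are named after their values were seen.

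**Figure D3:**
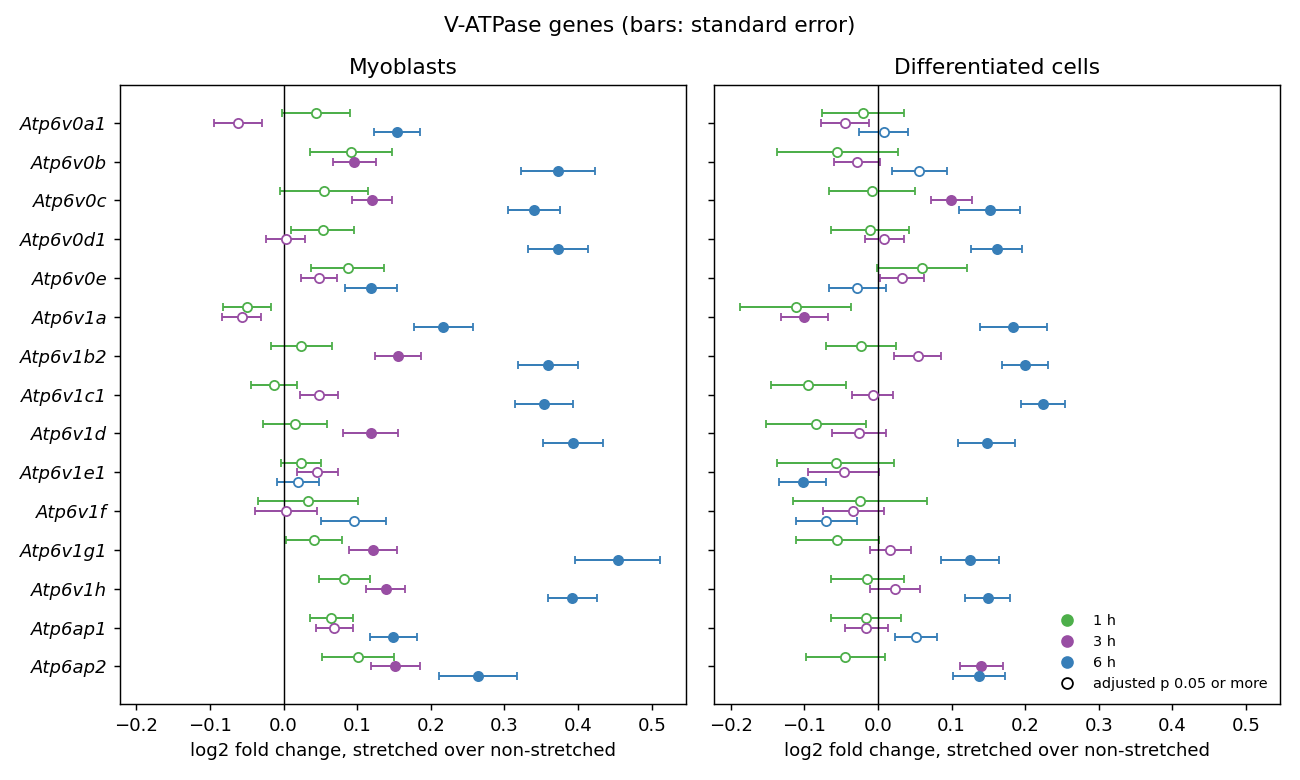
Log2 fold change of stretched over non-stretched cells (horizontal axis; bars are standard errors) for the 15 V-ATPase genes in myoblasts and differentiated cells, coloured by time, with filled points for an adjusted p-value under 0.05. At 6 h 13 points are filled on the right of 0 in myoblasts and 9 in differentiated cells.

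Of 32 tested genes of lysosomal enzymes and membrane proteins, 20 were upregulated and 0 downregulated in myoblasts at 6 h (14.1% and 13% of all genes tested), with a median log2 fold change of 0.17. Neu1, a sialidase of the lysosome, was the member of this list that also passed the limit of 0.58: its level was 17.9 ± 0.451 CPM in non-stretched and 27.5 ± 2.18 CPM in stretched cells (SD, n = 4), with a log2 fold change of 0.63 ± 0.054, adjusted p = 4.01e-05. Npc1, which exports cholesterol from lysosomes, had 0.41 ± 0.051, adjusted p = 3.15e-04, and Ctsa, a protease that protects Neu1, had 0.37 ± 0.040, adjusted p = 1.51e-04. At 3 h in myoblasts 6 were upregulated and 3 downregulated (16% and 15.8% of all genes tested). Npc1 had -0.10 ± 0.032, adjusted p = 0.0322 there, a call that was lost when non-stretched replicate 9 or 10 was left out, or stretched replicate 7, 8 or 10 (adjusted p = 0.0612 to 0.108). In differentiated cells 0 were upregulated and 6 downregulated at 3 h (10.8% and 11.4% of all genes tested), and 3 were upregulated and 2 downregulated at 6 h (11.5% and 10.8%), where the count of 3 was 1 without non-stretched replicate 8, stretched replicate 7 or stretched replicate 8. Neu1 in differentiated cells at 6 h had a value of 0.09 ± 0.044, adjusted p = 0.158. At 3 h in differentiated cells DESeq2 gave 3 upregulated genes, and edgeR counted 2 at an unadjusted p-value under 0.05. At 1 h both tools gave 0 genes in either stage, and edgeR counted 1 in myoblasts and 0 in differentiated cells at an unadjusted p-value under 0.05.

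Of 33 autophagy genes tested, 6 were upregulated and 6 downregulated in myoblasts at 3 h (16% and 15.8% of all genes tested), and 9 and 6 at 6 h (14.1% and 13%), with medians of 0.01 and 0.02. Map1lc3b, the ubiquitin-like protein that coats autophagosomes, was upregulated at 6 h (0.34 ± 0.042, adjusted p = 2.89e-04). Wipi1, which binds the lipid of forming autophagosomes, was downregulated (-0.31 ± 0.047, adjusted p = 8.45e-04). Atg9b, which encodes a lipid scramblase of the early autophagosome, was downregulated at 3 h (-0.48 ± 0.15, adjusted p = 0.0237), a call that was lost when non-stretched replicate 8 was left out, or stretched replicate 7 or 9 (adjusted p = 0.0587 to 0.0745). In differentiated cells 0 were upregulated (1 with DESeq2, and 1 at an unadjusted p-value under 0.05) and 4 downregulated at 3 h (10.8% and 11.4% of all genes tested), and 5 were upregulated and 4 downregulated at 6 h (11.5% and 10.8%).

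Of 32 further Rag, Ragulator, GATOR, TSC and mTORC1 genes tested, 0 were upregulated and 2 downregulated in myoblasts at 1 h (1.67% and 4.24% of all genes tested). At 3 h, 7 were upregulated and 10 downregulated in myoblasts (16% and 15.8%), and 5 and 8 in differentiated cells (10.8% and 11.4%). Slc38a9, an arginine sensor of the lysosome, was downregulated at 3 h in myoblasts (-0.42 ± 0.068, adjusted p = 5.28e-04) and in differentiated cells (-0.43 ± 0.057, adjusted p = 7.97e-04), while at 6 h its values were 0.10 ± 0.073, adjusted p = 0.343 and 0.09 ± 0.057, adjusted p = 0.277. Gatsl2, a relative of the arginine sensor CASTOR1, was downregulated at 3 h and 6 h in both stages, with log2 fold changes of -0.35 and -0.25 in myoblasts (adjusted p = 8.65e-05 and 0.00123) and -0.21 at both times in differentiated cells (adjusted p = 0.0053 and 0.00361). Sesn2, a leucine sensor and stress gene, was upregulated in differentiated cells at 3 h (0.40 ± 0.085, adjusted p = 0.00733), and in myoblasts at 3 h it had 0.06 ± 0.043, adjusted p = 0.304. At 6 h 4 genes were upregulated and 5 downregulated in myoblasts (14.1% and 13%), and 4 and 4 in differentiated cells (11.5% and 10.8%).

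AMPK phosphorylates FNIP1, and folliculin loss is known to raise PGC-1 in muscle. Of the 7 AMPK subunits, Prkag3 passed both limits in myoblasts at 6 h (-0.62 ± 0.21, adjusted p = 0.0466), from levels under 1 CPM in both groups on average, and the groups overlapped. Its call was lost when non-stretched replicate 7, 9 or 10 was left out, or stretched replicate 7, 8 or 10 (adjusted p = 0.0645 to 0.131). Prkab2 was downregulated at 1 h (-0.22 ± 0.049, adjusted p = 0.0222), Prkag2 at 3 h (-0.24 ± 0.054, adjusted p = 0.00416), and Prkab1 was upregulated at 3 h (0.13 ± 0.036, adjusted p = 0.014) and downregulated at 6 h (-0.12 ± 0.040, adjusted p = 0.0398), all in myoblasts. The call of Prkab2 at 1 h was lost without non-stretched replicate 10 (adjusted p = 0.0712) or stretched replicate 8 (0.0537), 9 (0.0593) or 10 (0.0896), and that of Prkab1 at 6 h without any non-stretched replicate or stretched replicate 7 or 9 (adjusted p = 0.0567 to 0.108). In myoblasts 0 of the 7 were upregulated and 1 downregulated at 1 h (1.67% and 4.24% of all genes tested). The counts were 2 and 1 at 3 h (16% and 15.8%) and 0 and 2 at 6 h (14.1% and 13%). In differentiated cells edgeR gave 0 of the 7 at each time. At an unadjusted p-value under 0.05 it counted 0, 1 and 1 over the rising times. DESeq2 gave 0, 0 and 1 with an adjusted p-value under 0.05. Among Ppargc1a, Ppargc1b and Esrra, the PGC-1 coactivators and their partner ERRalpha, Ppargc1b was upregulated in myoblasts at 3 h (0.22 ± 0.049, adjusted p = 0.00434), and Esrra was downregulated at 3 h in myoblasts (-0.14 ± 0.035, adjusted p = 0.00892) and in differentiated cells (-0.12 ± 0.035, adjusted p = 0.036). The latter call was lost when non-stretched replicate 7, 9 or 10 was left out, or stretched replicate 7, 8 or 10 (adjusted p = 0.0558 to 0.0978).

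Non-stretched cells, which the choice of the genes did not compare with each other, showed how the 10 genes varied without stretching. In myoblasts Flcn and Fnip2 were higher at 3 h than at 1 h (5.39% of all genes differed), Flcn by 0.22 ± 0.041 (adjusted p = 0.00775) and Fnip2 by 0.15 ± 0.026 (adjusted p = 0.00534) on the log2 scale. At 6 h against 1 h, 5 genes differed, all of them higher (4.54% of all genes differed): Gpnmb by 0.60 ± 0.12 (adjusted p = 0.0104), Flcn by 0.19 ± 0.041 (adjusted p = 0.0166), Fnip1 by 0.13 ± 0.026 (adjusted p = 0.0116), Rragc by 0.10 ± 0.022 (adjusted p = 0.0155) and Fnip2 by 0.10 ± 0.026 (adjusted p = 0.0351). The count of 5 was 0 when the experiment was left out of the model. It was 3 without replicate 7 or 8 at 1 h and 2 without replicate 7 at 6 h. In differentiated cells 0 genes differed at 3 h (0.0759% of all genes differed; 12 of 15813), by edgeR and by DESeq2, with 4 at an unadjusted p-value under 0.05 in edgeR. At 6 h Fnip2 was higher by 0.19 ± 0.040 (adjusted p = 0.0223) and Rragc by 0.09 ± 0.022 (adjusted p = 0.0381), where 4.71% of all genes differed. That count of 2 was 0 without the experiment in the model, and between 0 and 3 when single libraries were left out.

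Between the experiments, non-stretched myoblasts of replicates 9 and 10 had higher levels than those of replicates 7 and 8 for 4 of the 10 genes (4.46% of all genes differed). These were Gpnmb by 0.52 ± 0.10 (adjusted p = 0.00718), Fnip1 by 0.16 ± 0.022 (adjusted p = 4.35e-04), Sqstm1 by 0.12 ± 0.028 (adjusted p = 0.0247) and Fnip2 by 0.09 ± 0.021 (adjusted p = 0.0273). The count was 2 without replicate 7 at 6 h. Flcn was not among them. In differentiated cells 0 of the 10 genes differed between the experiments, where 18.1% of all genes did. DESeq2 gave 1, and edgeR counted 1 higher and 3 lower at an unadjusted p-value under 0.05.

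Non-stretched differentiated cells and myoblasts differed in all 10 genes at an adjusted p-value under 0.05, as did 89.4% of all genes tested. This fit took the libraries of a stage as independent, though they share experiments. Its standard errors and p-values therefore do not measure the spread between experiments. Flcn was higher in differentiated cells by 1.72 ± 0.028 on the log2 scale (3.29-fold, adjusted p = 9.77e-28), with levels between 67.1 and 80.2 CPM (median 71.6) against 18.4 and 23.9 CPM (median 22.1). Tfeb was higher by 1.18 ± 0.039, Mitf by 0.70 ± 0.028, Rragd by 0.57 ± 0.041, Sqstm1 by 0.55 ± 0.029 and Fnip1 by 0.52 ± 0.030. Fnip2 was lower, at -0.73 ± 0.027, as were Tfe3 at -0.49 ± 0.026 and Gpnmb at -1.22 ± 0.13. The folliculin partners therefore went opposite ways, Fnip1 higher and Fnip2 lower in differentiated cells. Rragc was nearly level, with a difference of 0.03 ± 0.015 (adjusted p = 0.0399) that missed the threshold with the libraries of 1 h alone (adjusted p = 0.296) or 6 h alone (adjusted p = 0.698). The stages cannot be told apart here from the experiments, plating density, days in culture and medium that went with them.

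**Figure D4:**
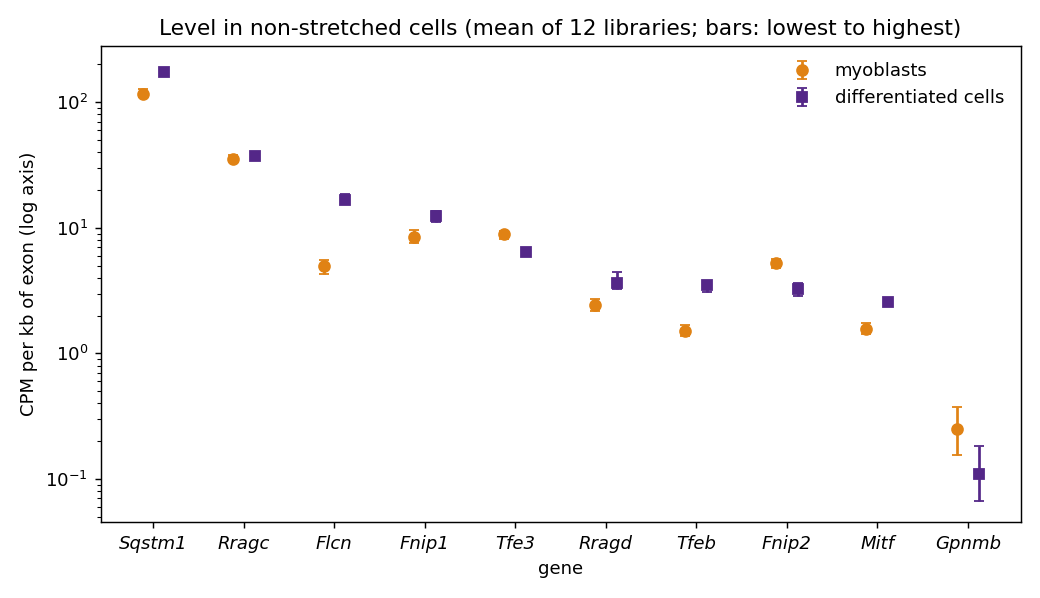
Level in non-stretched cells as CPM per kb of merged exon length (vertical log axis) for each of the 10 genes, with the mean of 12 libraries and bars from the lowest to the highest library, in myoblasts (orange) and differentiated cells (purple). Flcn stands at 4.98 in myoblasts and 16.7 in differentiated cells.

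Per length of exon, Sqstm1 was the most abundant of the 10 in non-stretched myoblasts, at 116.7 ± 6.56 CPM per kb (SD, n = 12), followed by Rragc at 35.4 ± 1.38. Tfe3 (8.86 ± 0.432) and Fnip1 (8.48 ± 0.605) followed and overlapped between libraries, as did Fnip2 (5.28 ± 0.286) and Flcn (4.98 ± 0.391). Rragd stood at 2.42 ± 0.160, and Mitf (1.56 ± 0.0947) and Tfeb (1.51 ± 0.104) overlapped below it. Gpnmb was lowest at 0.252 ± 0.0708. In differentiated cells Flcn was the third of the 10, at 16.7 ± 0.870, above Fnip1 (12.4 ± 0.673) and Tfe3 (6.43 ± 0.263). Rragd (3.65 ± 0.290), Tfeb (3.48 ± 0.215) and Fnip2 (3.25 ± 0.240) overlapped. The place of Tfeb depends on the length used: by its longest transcript it stood at 3.64 ± 0.252 in myoblasts and 8.42 ± 0.521 in differentiated cells.

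The genes whose log2 CPM followed that of Flcn most closely over the 24 libraries of a stage were found by Pearson's r. This is a description over libraries that share groups and experiments. The 24 libraries include the stretched ones, and Flcn and the other genes of the set were selected on their stretch differences. The ranks of the selected genes are therefore partly built in, and nothing is read from them. In myoblasts, among 11400 genes, Fnip2 was the closest (r = 0.967), followed by Impact (0.966), Wisp1 (0.959), Ubn1 (0.947) and Fnip1 (0.944). In differentiated cells, among 11870 genes, they were Zfp553 (0.951), Tsc22d3 (0.929), Cdan1 (0.923), Asb6 (0.918) and Impact (0.916). Rragc was at rank 134 in myoblasts (r = 0.809) and at rank 36 in differentiated cells (0.886). Sqstm1 was at rank 55 in myoblasts (0.870) and at rank 484 in differentiated cells (0.720). Rragd was at ranks 512 (0.669) and 2369 (0.419) in the same order, and Gpnmb at rank 961 in myoblasts (0.555). In differentiated cells Fnip2 was at rank 56 (0.864) and Fnip1 at rank 266 (0.778). Tfe3 had r = 0.01 in myoblasts and -0.052 in differentiated cells. Tfeb (-0.575) and Mitf (-0.399) ran against Flcn in myoblasts, and Mitf did in differentiated cells (-0.628).

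The 10 genes lie on 6 chromosomes of mm10, with Flcn, Fnip1 and Sqstm1 on chromosome 11. Flcn spans chr11:59791408-59810016 on the minus strand and Fnip1 chr11:54438199-54518235 on the plus strand. Rragc (chr4:123917446-123936997) and Rragd (chr4:32983037-33022180) are both on the plus strand of chromosome 4. Between 0% and 1.55% of the 31-base words in their transcripts also occur in another gene, with the highest value for Fnip2.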

How the data were processed

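RNA was sequenced from 48 libraries, and the authors aligned the reads with STAR to mm10, quantified transcripts with Salmon and deposited whole-number counts per gene symbol for each stage, without normalization. All 48 columns were used (0 left out). The labels gave each sample its stage, time and stretching. Replicate 9 of the myoblasts stretched for 1 h carries an experiment code of its own in its sample title. Its column of counts carries the code of replicate 10, and it was treated as part of that experiment.

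After filterByExpr and TMM scaling, the 8 libraries of a time and stage were compared in edgeR 4.0.16 (R 4.3.3; quasi-likelihood test), with Benjamini-Hochberg adjusted p-values over all genes tested. Errors beside log2 values are standard errors from this fit. Non-stretched cells were compared over time and between experiments in one model per stage, and between stages over both tables, with time as a covariate. CPM values use TMM factors over all 48 libraries (0.9502 to 1.049), and log2 CPM a prior count of 1.

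The 10 genes and the pathway lists (125 of 126 symbols found) were chosen with earlier results of these data known. The named genes of each list are those passing both limits in any stretch comparison and the 3 with the largest absolute log2 fold change among genes with an adjusted p-value under 0.05 and a mean of at least 100 counts, and other genes named for the V-ATPase and the promoter motifs were chosen after their values were seen. For the likeness to Flcn the 5 highest correlations per stage are named. Promoters are from RefSeq (GRCm38.p6) and exon lengths from GENCODE vM21. Alternatives were DESeq2 1.42.0, RLE factors, other filters, a replicate block, the experiment as covariate, all 24 libraries of a stage, and leaving out each library. Protein sequences and splicing were not analysed here.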

Additional observations from a re-analysis of the deposited data

Results flagged for a closer look

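In 9 of 120 groups of 4 libraries, 1 library stood far from the other 3 by Dixon's ratio, where chance gives about 1 in 20. In differentiated cells stretched for 1 h, replicate 4 was low for Flcn (49.04 CPM against 59.77 to 60.64) and for Rragc (105.4 CPM against 118.9 to 120.3). Rragc was also apart in stretched myoblasts at 3 h (replicate 10, 146.3 CPM against 139.3 to 140.5) and in non-stretched differentiated cells at 3 h (replicate 8, 128.2 CPM against 123.6 to 124.3) and 6 h (replicate 10, 129.1 CPM against 126.1 to 126.6). For Sqstm1 it was replicate 10 of the non-stretched myoblasts at 1 h (419.3 CPM against 375.3 to 377.7) and replicate 7 of differentiated cells stretched for 3 h (566.7 CPM against 627.3 to 636.2). Fnip2 was high in replicate 9 of the non-stretched myoblasts at 3 h (47.51 CPM against 45.34 to 45.56), and Tfe3 in replicate 8 of the stretched myoblasts at 6 h (79.53 CPM against 70.95 to 72.03).

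Opposite directions of the stretch effect, with every stretched library on one side of the mean of its non-stretched group and on the other side in the comparison set against it, were found for 14 of 90 pairs, and the difference was not tested in any of them. The pairs share comparisons, and no share over all genes was computed, so nothing is read from the count. The values are log2 fold changes. Without replicate 4, stretched differentiated cells at 1 h had log2 ratios of -0.19 for Flcn, -0.06 for Fnip2 and 0.12 for Mitf. Flcn had -0.14 at 1 h in myoblasts against 0.85 at 3 h and 0.70 at 6 h, and -0.26 at 1 h in differentiated cells against 0.22 and 0.24. Fnip2 had -0.10 at 1 h in myoblasts against 0.41 at 3 h and 0.34 at 6 h, and -0.15 at 1 h in differentiated cells against 0.15 and 0.40. Tfeb had -0.17 at 3 h in myoblasts against 0.068 at 6 h, and the latter stood against -0.14 at 6 h in differentiated cells. Tfe3 had 0.085 at 3 h against -0.19 at 6 h in myoblasts, and 0.054 against -0.059 in differentiated cells. Mitf had 0.14 at 1 h against -0.04 at 3 h in myoblasts, and 0.094 against -0.37 in differentiated cells.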

How the results depend on the processing

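The number of the 10 genes passing both limits was the same under every alternative run (0, 1 and 2 in myoblasts at 1, 3 and 6 h, and 0 in differentiated cells). Of 960 recomputed log2 fold changes of these genes, 30 turned their sign, 23 of them in differentiated cells at 1 h, and each of the 30 was at most 0.09 in size as reported. Between the stages, Rragc fell short of the threshold under 2 alternatives. Of the wider pathway, 2 genes passed both limits in myoblasts at 6 h, and 1 with the experiment as covariate or without any of 6 libraries (non-stretched replicates 7, 9 and 10 and stretched replicates 7, 8 and 10). In differentiated cells at 3 h 0 did, and 1 with all 24 libraries or without non-stretched replicate 8. The other counts that moved by more than 1.5 times are at an adjusted p-value under 0.05, and the cause was not tested. For the genes of the wider pathway in myoblasts at 1 h, the count of 3 was 5 with DESeq2, 5 without a filter and 9 with all 24 libraries. In differentiated cells at 1 h the count of 0 was 2 with DESeq2 and with all 24 libraries, and 1 without a filter, with at least 10 counts or with the experiment as covariate. At 3 h the count of 27 was 15 with all 24 libraries. For the 10 genes in differentiated cells at 1 h the count of 0 was 1 with DESeq2, with the experiment as covariate, with all 24 libraries and without stretched replicate 4. Upregulated V-ATPase genes numbered 3 in place of 7 in myoblasts at 3 h with all 24 libraries, and 1 in place of 2 in differentiated cells at 3 h without a filter or with all 24 libraries. Upregulated genes of lysosomal enzymes and membrane proteins in differentiated cells numbered 3 with DESeq2 and 2 with the experiment as covariate in place of 0 at 3 h, and 5 with DESeq2 and 1 without a filter in place of 3 at 6 h. In non-stretched cells at 6 h against 1 h, the count of 5 in myoblasts was 0 without the experiment in the model, and the count of 2 in differentiated cells was 0 without it and 4 with DESeq2. Between the experiments of differentiated cells the count of 0 was 1 with DESeq2 or without a filter.

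Leaving out single libraries, the pathway counts ran from 0 to 4 (myoblasts at 1 h, lowest without stretched replicate 9, and 1 without replicate 10 of either group), 0 to 1 (differentiated cells at 1 h), 14 to 24 (at 3 h, lowest without stretched replicate 7, 15 without stretched replicate 10, 17 without non-stretched replicate 7) and 16 to 36 (at 6 h, lowest without non-stretched replicate 8, and 17 without stretched replicate 7). The 10 genes gave 0 to 1 in differentiated cells at 1 h. Upregulated V-ATPase genes ran from 1 to 2 and from 5 to 9 in differentiated cells at 3 h and 6 h, and upregulated lysosomal genes from 0 to 1 and from 1 to 3. In non-stretched myoblasts the counts ran from 2 to 6 at 6 h against 1 h and from 2 to 5 between experiments, and in non-stretched differentiated cells both ran from 0 to 3, where the count between experiments was 3 without replicate 10 at 6 h.

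Replicate numbers were not taken as pairs, since the deviations of same-numbered stretched and non-stretched libraries correlated above 0.1 in only 6 of 23 pairs (r from -0.044 to 0.153), and 8 libraries correlated best with their own number. With a replicate block the pathway counts were 3, 48 and 60 in myoblasts and 0, 26 and 22 in differentiated cells, upregulated lysosomal genes in differentiated cells were 1 at 3 h (0 without the block) and 1 at 6 h (3 without), and the count of non-stretched differentiated cells at 6 h was 1 in place of 2. Genes with few counts, such as Gpnmb, limit what can be seen at this depth.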
